A study of Homo sapiens with 12 samples.

Results

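The genes described here are 44 genes of DNA replication and S phase, chosen by name as genes that E2F factors are known to drive at the start of S phase. They are 44 of the 56634 gene symbols in the count table. All 44 were found in the table and all 44 passed the filter on low counts, which left 13084 genes to test. The study treated HCT116 cells, an established human colorectal carcinoma line, with the inflammatory cytokine TNF and with Senexin B, an inhibitor of the Mediator kinases CDK8 and CDK19, and measured RNA by sequencing in 4 groups of 3 libraries. Cells given TNF plus Senexin B were kept in 1 µM Senexin B for 1 h before TNF at 10 ng/mL for 2 h. Cells given TNF had 0.1% DMSO for 1 h and then the same TNF exposure. Cells given Senexin B alone had 1 µM for 3 h, and control cells had 0.1% DMSO for 3 h. All groups were the same cell line.

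DNA replication is licensed in G1, when the origin recognition complex, CDC6 and CDT1 load the MCM helicase onto DNA. The helicase is activated by CDC45 and the GINS complex, and the polymerases, the PCNA clamp and the enzymes that make deoxynucleotides follow in S phase. Many of these genes carry E2F sites in their promoters, so their RNAs usually rise together as cells enter S phase, and proliferating carcinoma lines in culture express them. In RNA from whole cultures, fewer cells in S phase and less RNA per cell cannot be told apart.

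The libraries held 5835226 to 9281176 counts each, and the 44 genes took 0.814 to 0.883% of them, with 201 to 6881 counts per gene and library. The biological coefficient of variation was 3.62%. Of 8 epithelial markers 6 passed the filter, with summed levels of 3913 to 4809 CPM per library, where CPM is the count of a gene scaled to the size of its library, while the intestinal markers CDX1 and VIL1 were at 0 in every library. Fibroblast markers summed to 7.37 to 11.2 CPM, with DCN, LUM and THY1 at 0, and blood cell markers to at most 0.547 CPM. TNF replicate 1 stood apart: the log2 deviation of the 44 genes from their TNF group mean had a Spearman correlation of -0.808 with transcript GC content in that library, a description over 44 genes that share 1 library. Values that it moves are given with and without it for several of the named genes, but not for all. P-values measure only the spread between these libraries, which the labels call biological triplicates.

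Sequences upstream of RRM2, RRM1, CLSPN and UHRF1, which are among the genes whose RNA differed, are shown first, because the 44 genes were named as E2F targets. In RefSeq (GRCh38.p14), 39 of the 44 genes had a window of 250 bases before the start; MCM4, MCM5, GINS4, E2F8 and DSCC1 are named only. A search on both strands for the E2F words TTTCCCGC, TTTCGCGC, TTTGCCGC and TTTGGCGC found a match in 14 of 39 windows (35.9%), against 979 of 35116 windows of the same length over all genes (2.79%). The CCAAT box, read as CCAAT, was present in 22 of 39 windows (56.4%), against 32% of all windows, and the words overlapped in none of the windows printed. The cell cycle element TTTGAA was present in 1 of 39 windows (2.56%), that of RRM1, against 13.3% of all windows. Among the genes whose RNA differed but whose windows are not printed, SLBP had neither an E2F word nor a CCAAT box. E2F2 had 1 E2F word and no CCAAT box, and PCNA had 1 E2F word and 3 CCAAT boxes. GINS1 and ORC6 had no E2F word, with 1 and 2 CCAAT boxes. A match is a run of letters and was not tested as a binding site.

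The window of RRM2, the regulated subunit of ribonucleotide reductase, held no E2F word and 3 CCAAT boxes spaced along 1 strand. GENCODE 29 (GRCh38) annotates that window as exon, so only the stretches around the boxes are printed, with the box in capitals. They lie at chr2:10122606-10122630, chr2:10122636-10122660 and chr2:10122663-10122687 on the plus strand.
RRM2 box 1: caaggcgcagCCAATgggaagggtc
RRM2 box 2: catggcacagCCAATgggaagggcc
RRM2 box 3: ggcaccaaagCCAATgggaagggcc

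The window of RRM1, the large subunit of the same enzyme, lies at chr11:4094435-4094684 on the plus strand, outside annotated exons, and held 1 CCAAT box. The window of CLSPN, which encodes the checkpoint adaptor claspin, lies at chr1:35769979-35770228 on the minus strand, outside annotated exons, and held 3 CCAAT boxes on the opposite strand, printed as ATTGG. UHRF1, which binds hemimethylated DNA and recruits the maintenance methyltransferase, had both a CCAAT box and an E2F word. The part of its window outside annotated exons lies at chr19:4909251-4909429 on the plus strand. Its E2F word, in the opposite orientation, lies in the stretch chr19:4909477-4909500, inside an annotated exon. Capitals mark the CCAAT boxes and the E2F word.
RRM1: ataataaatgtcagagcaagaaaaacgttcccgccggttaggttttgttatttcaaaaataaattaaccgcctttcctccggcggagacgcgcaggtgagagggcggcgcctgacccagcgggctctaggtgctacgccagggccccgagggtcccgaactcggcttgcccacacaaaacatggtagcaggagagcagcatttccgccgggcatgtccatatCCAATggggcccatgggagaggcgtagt
CLSPN: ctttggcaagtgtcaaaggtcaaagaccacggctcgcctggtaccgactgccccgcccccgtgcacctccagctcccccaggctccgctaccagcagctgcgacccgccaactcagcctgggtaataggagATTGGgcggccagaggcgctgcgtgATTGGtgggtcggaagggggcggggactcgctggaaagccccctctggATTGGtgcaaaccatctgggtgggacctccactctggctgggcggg
UHRF1: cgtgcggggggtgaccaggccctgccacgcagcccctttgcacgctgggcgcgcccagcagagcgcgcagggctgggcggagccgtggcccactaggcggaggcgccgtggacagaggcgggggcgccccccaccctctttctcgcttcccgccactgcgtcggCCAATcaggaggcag
UHRF1 E2F word: ccgagttttcGCGGGAAAaaaatc

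In control cells the 44 genes were expressed at levels that differed by 45.7-fold per kilobase of exon, and all 44 lay above the median of the tested genes. PCNA, the sliding clamp of the polymerases, was the highest at 295 ± 7.15 CPM per kilobase (SD, n = 3), followed by the thymidine kinase TK1 at 201 CPM per kilobase. The helicase genes MCM7 and MCM3 came next with 167 and 147 CPM per kilobase, then RRM2 with 143 CPM per kilobase. At the low end stood the E2F factor gene E2F2 with 9.08 CPM per kilobase and the GINS subunits GINS4 and GINS3 with 7.25 and 6.46 CPM per kilobase. The median over the 44 genes was 30.6 CPM per kilobase, against 6.08 over all tested genes. Of the 43 pairs of neighbours in this order, 19 did not overlap between control libraries, among them PCNA above TK1, TK1 above MCM7 and MCM7 above MCM3, while 24 pairs overlapped. Overlap covers only the spread between libraries, not the choice of length. The length used joins the exons of all annotated transcripts, 4386 bases for MCM7 and 1861 for TK1. Their longest coding transcripts have 3084 and 1681 bases, and with such lengths the order of neighbours can change, that of TK1 and MCM7 included. The order was close to the same in cells given TNF plus Senexin B (Spearman 0.995 over 44 genes, as a description). The median coefficient of variation between libraries of the same group, over the 44 genes and all 4 groups, was 3.39%.

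**Figure D1:**
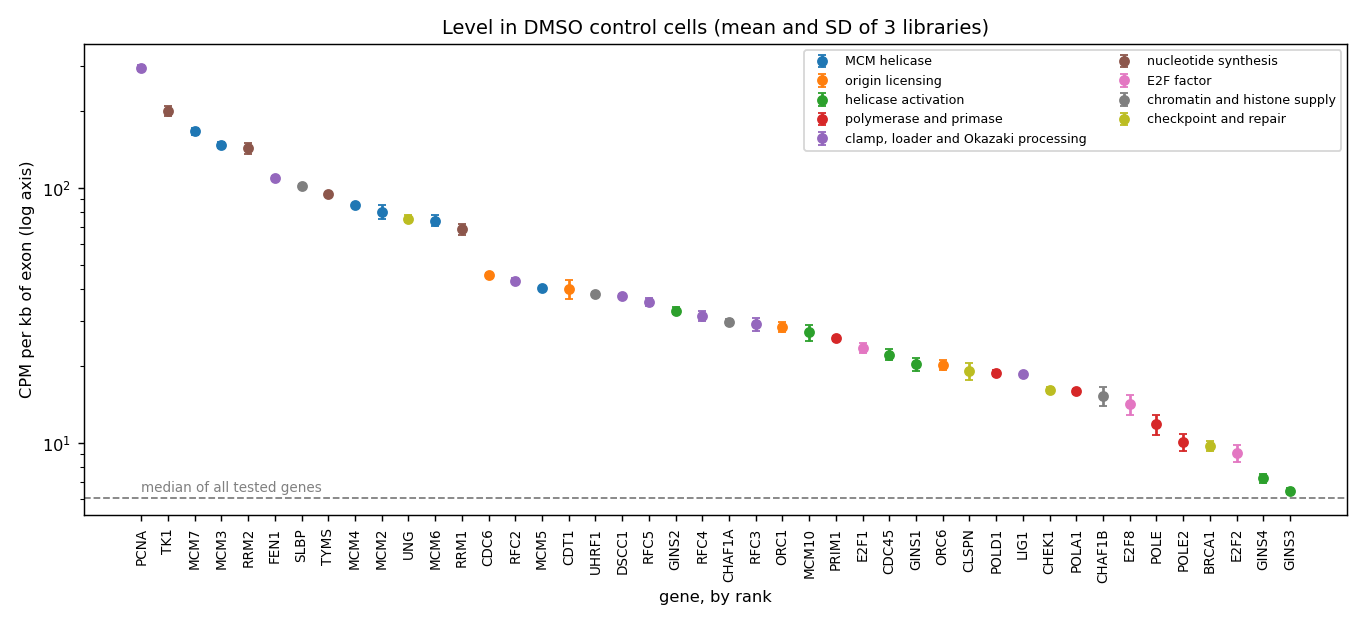
Level of each of the 44 genes in control cells, in CPM per kilobase of exon on a log axis, ordered from high to low; points are means and bars the SD of 3 libraries, coloured by role, and the dashed line is the median of all tested genes. PCNA stands highest at 295 and GINS3 lowest at 6.46, above the median of 6.08.

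Across the groups, the summed level of the 44 genes was 8374 ± 113 CPM in TNF plus Senexin B libraries, 8732 ± 67.4 CPM in TNF libraries, 8424 ± 17.3 CPM in Senexin B libraries and 8618 ± 139 CPM in control libraries (SD, n = 3 each). The TNF plus Senexin B libraries spanned 8247 to 8465 CPM and the TNF libraries 8668 to 8802 CPM, with no overlap. The Senexin B libraries spanned 8414 to 8444 CPM and the control libraries 8458 to 8716 CPM, also with no overlap. That second gap was narrow and closed without RRM2. The other 43 genes summed to 7784 to 7812 CPM in Senexin B libraries and 7734 to 7919 CPM in control libraries, which overlap. A gap this narrow could also close without another single gene, so it is not credited to RRM2 alone. Without RRM2 the sums were 7655 to 7834 CPM in TNF plus Senexin B libraries and 7842 to 8017 CPM in TNF libraries, with a small gap left. The mean log2(CPM + 1) of all 44 genes, which weights them equally, was 7.12 to 7.13 in Senexin B libraries and 7.12 to 7.16 in control libraries, and overlapped. The same mean was 7.09 to 7.13 in TNF plus Senexin B libraries and 7.15 to 7.16 in TNF libraries, with no overlap. Over the 5 pairwise comparisons and their interaction, 9 of the 44 genes were called in at least 1 and 35 in none, where a call is an adjusted p under 0.05 in edgeR's quasi-likelihood test over all 13084 genes. Of all tested genes, 18.7% were called in at least 1. The 95% interval of the fold change lay within 1.5-fold for all 44 genes in each of these comparisons, without adjustment for their number.

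**Figure D2:**
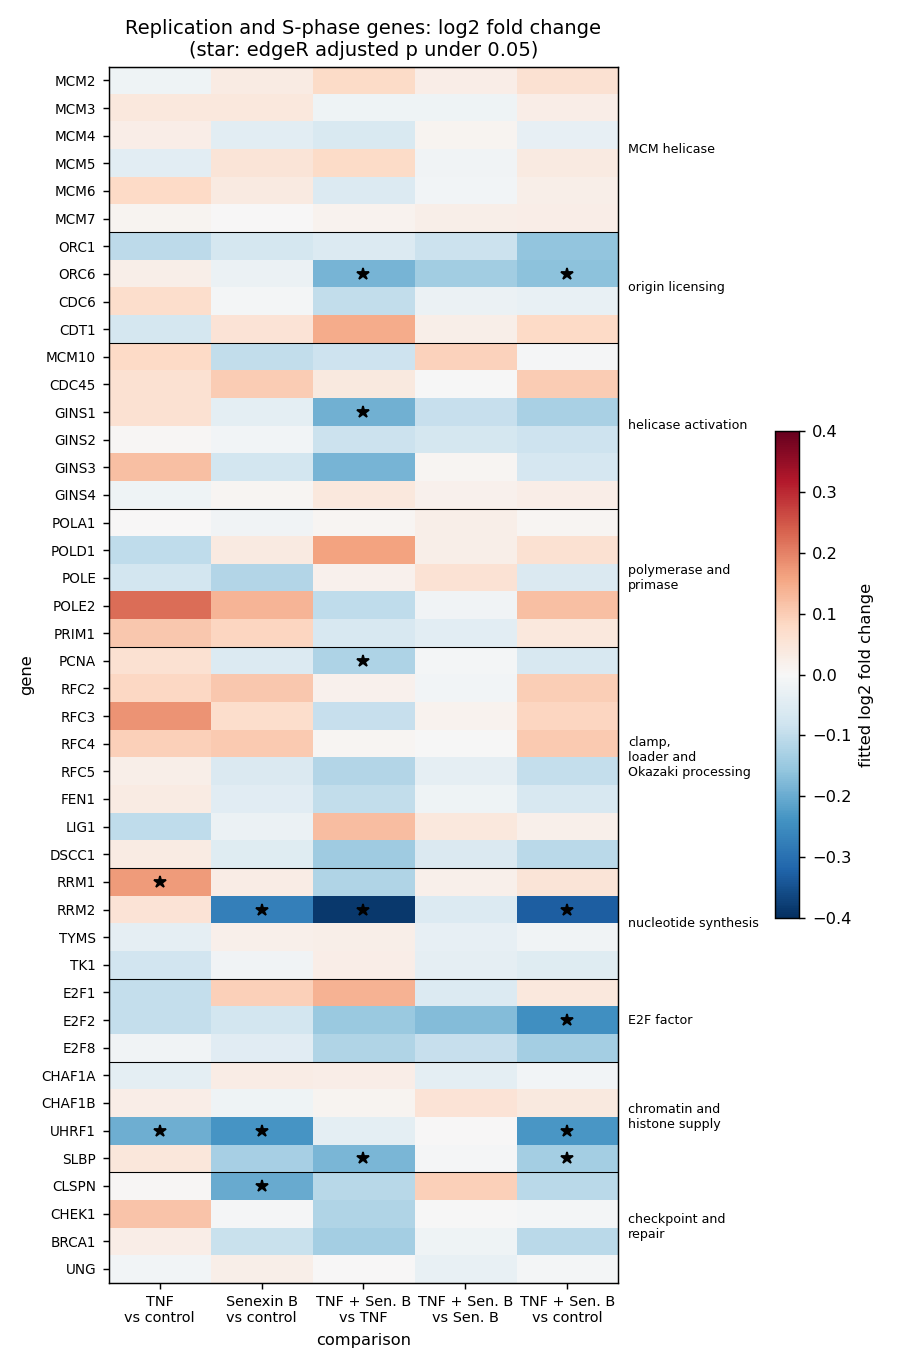
Fitted log2 fold changes of the 44 genes (rows, grouped by role) in 5 comparisons (columns); red is higher and blue lower in the group named first, and stars mark calls. Most cells are pale, RRM2 is the darkest blue in each of the 3 comparisons where Senexin B was given to 1 group only, and UHRF1 is blue in the 3 comparisons against control.

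The first comparison with Senexin B asked what the inhibitor alone did to cells not given TNF. RRM2, UHRF1 and CLSPN were lower, no gene was higher, and 41 of the 44 were not called. The 3 calls are 6.82% of the 44 genes, where 3.04% of all tested genes were called, and 1.51% were called lower. The 2 comparisons against control, of TNF and of Senexin B, share the control libraries.

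RRM2 RNA was 624, 633 and 629.6 CPM in Senexin B libraries, against 724, 797 and 760.3 CPM in control libraries. Every Senexin B library lay below every control library, and the log2 fold change was -0.27 ± 0.04 (SE), a fall of 17.3%, with adjusted p = 3.18e-07. UHRF1 was 169, 166 and 168 CPM in Senexin B libraries, against 198, 200.2 and 195 CPM in control libraries. The groups did not overlap here either, and UHRF1 fell by 0.24 ± 0.05 on the log2 scale (adjusted p = 0.000594).

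CLSPN was 87.6, 88.2 and 93.4 CPM in Senexin B libraries, against 111, 94.7 and 104.5 CPM in control libraries. These groups did not overlap, but the lowest control library was close to the highest Senexin B library; the log2 fold change was -0.20 ± 0.06 (adjusted p = 0.0257). SLBP, which binds the stem-loop of replication-dependent histone mRNAs, had a log2 fold change of -0.13 ± 0.04 and was not called (adjusted p = 0.0765). The 6 helicase genes MCM2 to MCM7 had log2 fold changes of -0.04 to 0.05. TYMS, which makes thymidylate, had 237 ± 5.76 CPM in Senexin B libraries and 234 ± 2.51 CPM in control libraries. The 41 genes not called ranged from -0.13 to 0.14, and the median over all 44 was -0.013, against -0.0004 over all tested genes. Of the 44 genes, 6 lay lower and 4 higher with no overlap, where 20.0% of all tested genes did not overlap. The CLSPN call was lost in DESeq2 and when replicate 1 or 3 of control, or replicate 1 or 2 of Senexin B, was left out, with an adjusted p of up to 0.246.

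**Figure D3:**
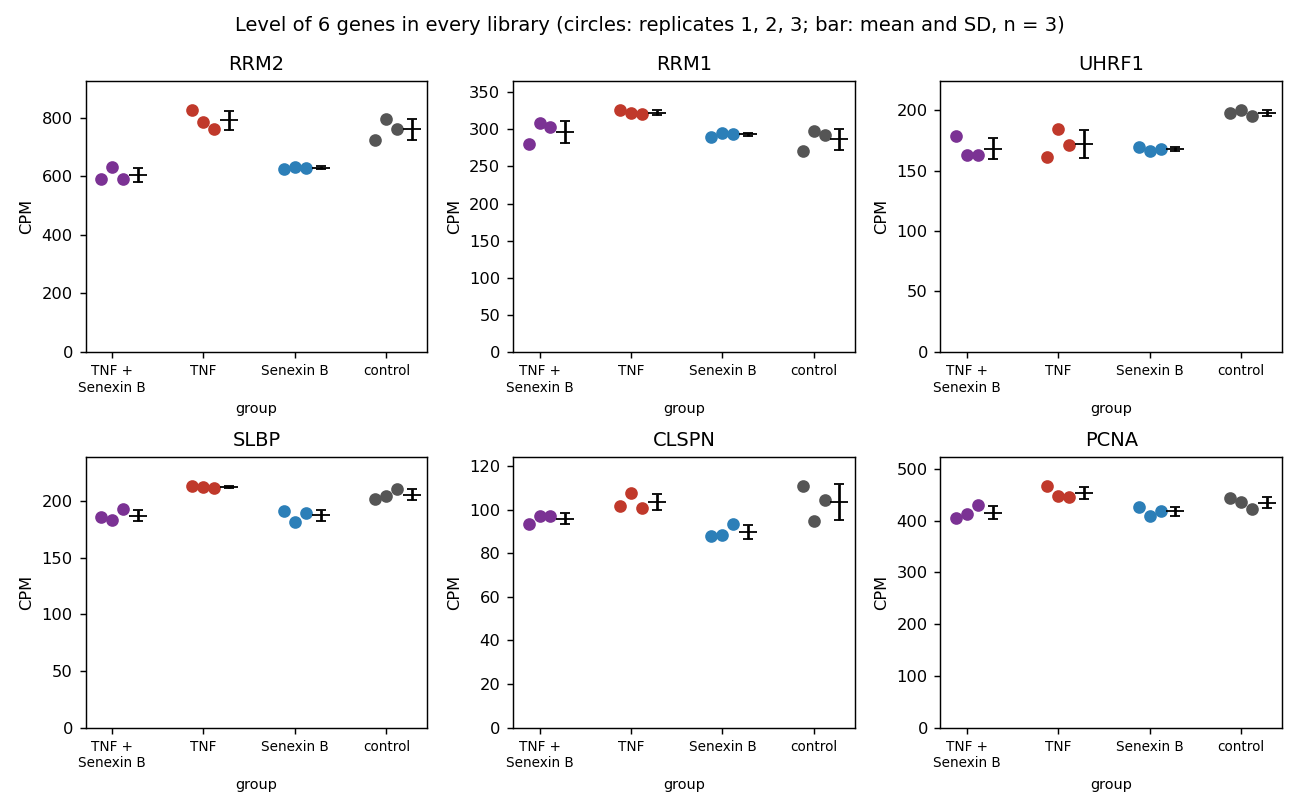
CPM of 6 genes in each library, by group; circles are the libraries and the bars beside them the mean and SD of 3, on axes that start at 0. RRM2 lies at 591 to 633 CPM in the 6 libraries with Senexin B and at 724 to 826 CPM in the 6 without it, and UHRF1 is highest in the 3 control libraries.

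With TNF present, Senexin B was set against TNF alone, in libraries that the previous comparison did not use. Here RRM2, SLBP, ORC6, PCNA and GINS1 were lower and none of the 44 was higher. The 5 calls are 11.4% of the 44 genes, where 5.45% of all tested genes were called and 2.55% were called lower. RRM2 is the 1 gene called in both comparisons of Senexin B with the matching group without it.

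RRM2 was 592, 631 and 591 CPM in TNF plus Senexin B libraries, against 826, 785 and 761 CPM in TNF libraries. The groups were far apart, and RRM2 fell by 0.39 ± 0.04 on the log2 scale, or 23.5% (adjusted p = 9.91e-12). SLBP was 186, 183 and 193 CPM in TNF plus Senexin B libraries, against 214, 213 and 212 CPM in TNF libraries. Its groups did not overlap, and its log2 fold change was -0.18 ± 0.04 (adjusted p = 0.00445).

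ORC6, a subunit of the origin recognition complex, was 75.8, 79.5 and 77.7 CPM in TNF plus Senexin B libraries, against 90.7, 90.3 and 84.5 CPM in TNF libraries (log2 fold change -0.19 ± 0.06, adjusted p = 0.0366). PCNA was 405, 412 and 429 CPM in TNF plus Senexin B libraries, against 467, 447 and 445 CPM in TNF libraries (log2 fold change -0.12 ± 0.04, adjusted p = 0.0371). GINS1, a subunit of the complex that activates the helicase, was 78.8, 75.1 and 73.2 CPM in TNF plus Senexin B libraries, against 93.6, 83.8 and 83.3 CPM in TNF libraries (log2 fold change -0.19 ± 0.06, adjusted p = 0.0383). None of the 3 overlapped between groups. Without TNF replicate 1, the log2 fold changes of ORC6, PCNA and GINS1 were -0.17, -0.10 and -0.14. Of 20 alternative settings, ORC6 was called in 11, PCNA in 13 and GINS1 in 11. Their calls rested on single libraries: without TNF replicate 1, or without TNF plus Senexin B replicate 2, 2 of the 44 genes were called, and without TNF plus Senexin B replicate 1 or 3, 3 were called.

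Of the 44 genes, 15 lay lower and 4 higher in TNF plus Senexin B libraries than in TNF libraries with no overlap, which happened in each direction for 11.3% of all tested genes. The median of the 44 log2 fold changes was -0.057, against 0.0008 over all tested genes. Some genes had higher means with both agents, none of them called. CDT1, which loads the helicase with CDC6, had 141.5 ± 3.83 CPM in TNF plus Senexin B libraries and 127 ± 14.0 CPM in TNF libraries (adjusted p = 0.138). TNF replicate 1 was the lowest of these with 111 CPM, and the log2 fold change of CDT1 was 0.15 with it and 0.07 without it. By contrast, CDC6 had 247 ± 4.32 CPM in TNF plus Senexin B libraries and 265 ± 13.8 CPM in TNF libraries. Its log2 fold change was -0.10 with TNF replicate 1 and -0.06 without it. E2F1, the activator factor, had 60.7 ± 1.67 CPM in TNF plus Senexin B libraries and 55.0 ± 1.71 CPM in TNF libraries (log2 fold change 0.14 ± 0.06, adjusted p = 0.223). MCM2 had 411.5 ± 2.20 CPM in TNF plus Senexin B libraries and 390 ± 22.6 CPM in TNF libraries, with log2 fold changes of 0.08 and, without TNF replicate 1, 0.04. The 6 helicase genes had log2 fold changes of -0.06 to 0.08. BRCA1, which acts in homologous recombination, had 82.4 ± 4.47 CPM in TNF plus Senexin B libraries and 90.9 ± 6.24 CPM in TNF libraries and was not called. The log2 fold change of BRCA1 was -0.13 with TNF replicate 1 and -0.10 without it. The Spearman correlation of log2 fold change with transcript GC content was 0.657 over the 44 genes, 0.437 without TNF replicate 1, and 0.438 without control replicate 1 and TNF replicate 1. With GC-corrected offsets, RRM2 and SLBP had log2 fold changes of -0.37 and -0.20, PCNA and ORC6 stayed called, the flap nuclease gene FEN1 gained a call and GINS1 lost its own. Without those libraries, RRM2 and SLBP had -0.35 and -0.18, and ORC6, PCNA and GINS1 were not called. The part of GC content in these differences was not tested further.

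A contrast that averages both Senexin B comparisons, added after the data were seen, used all 12 libraries and so shares them with the comparisons above. It called 5 of the 44 genes lower and none higher (11.4%), where 10.1% of all tested genes were called and 4.89% were called lower. The 5 were RRM2 at -0.33 ± 0.03 (adjusted p = 5.42e-15), SLBP at -0.16 ± 0.03 (adjusted p = 0.000159), UHRF1 at -0.14 ± 0.03 (adjusted p = 0.00348), CLSPN at -0.16 ± 0.04 (adjusted p = 0.00495) and PCNA at -0.09 ± 0.03 (adjusted p = 0.0206), all log2 fold changes with SE. The UHRF1 average joins -0.24 in Senexin B against control and -0.04 in TNF plus Senexin B against TNF, where it was not called (adjusted p = 0.722). The direction of the list was not the same in every setting: CDT1 and POLD1 (the catalytic subunit of the lagging-strand polymerase) were called higher without TNF replicate 2, when 7 others were called lower, and CDT1 was called higher with no filter on low counts. CDT1 and POLD1 were also called higher in TNF plus Senexin B against TNF when TNF replicate 2 was left out, beside 4 lower. MCM2 had 0.05, with an interval of -0.00 to 0.11.

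**Figure D4:**
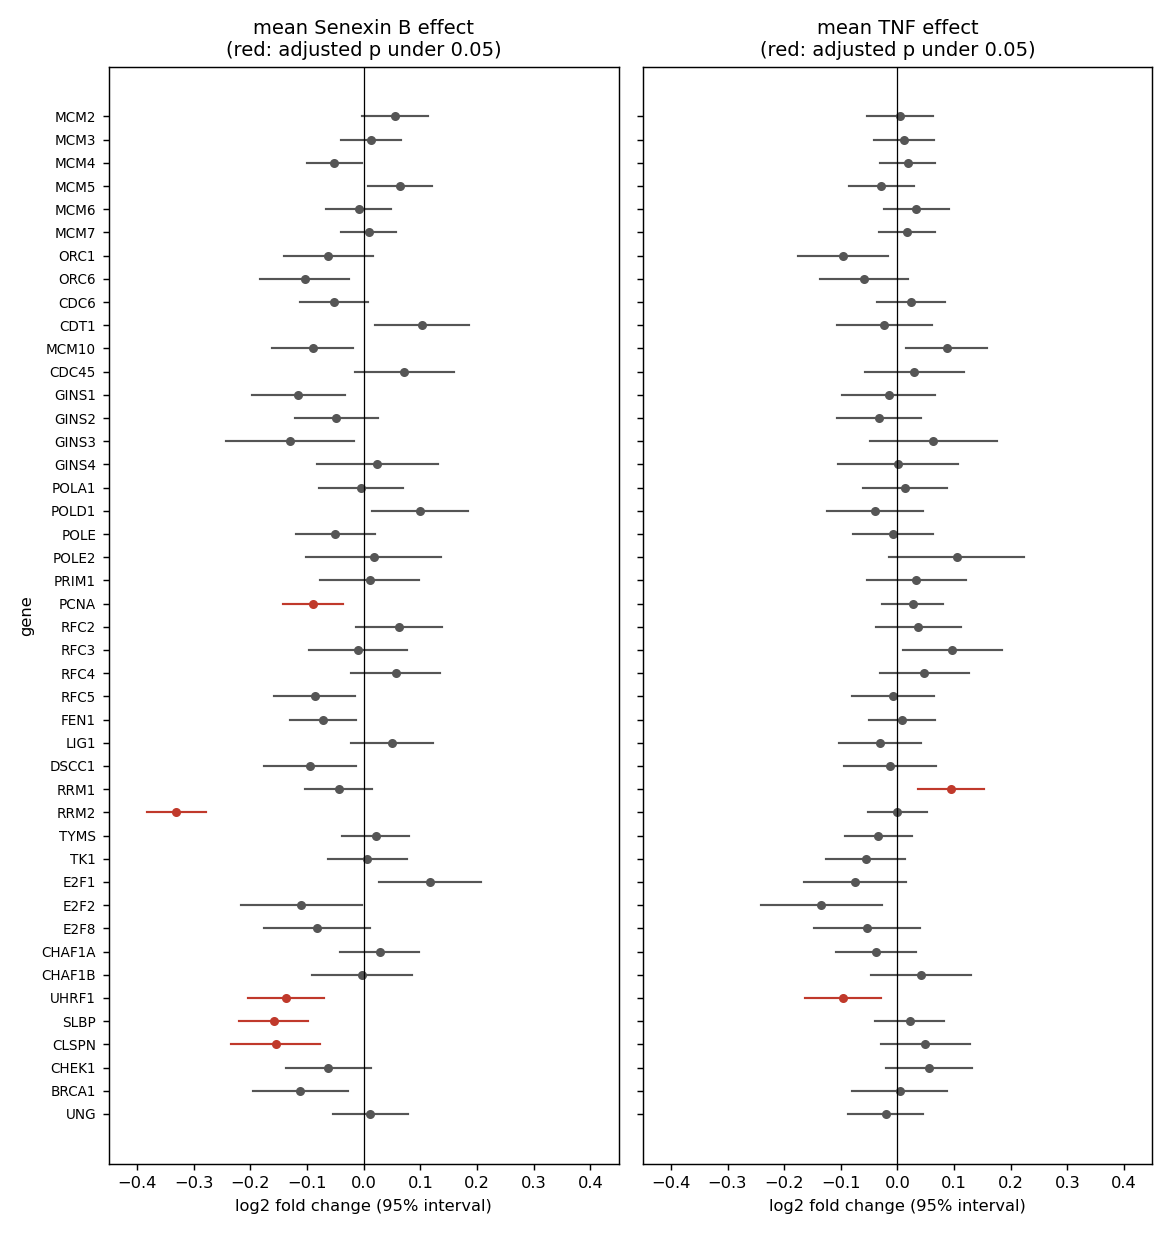
Log2 fold change with its 95% interval for each of the 44 genes, averaged over the 2 Senexin B comparisons (left) and over the 2 TNF comparisons (right); red marks calls. RRM2 lies at -0.33 on the left, away from the other genes, and near 0 on the right, where RRM1 at 0.09 and UHRF1 at -0.10 are red.

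TNF alone was set against control, to ask what the cytokine did without the inhibitor. RRM1 was higher and UHRF1 lower, and 42 genes were not called. The 2 calls are 4.55% of the 44, where 10.0% of all tested genes were called, 5.81% higher and 4.20% lower. RRM1 was 326, 322 and 320.4 CPM in TNF libraries, against 271, 297 and 292 CPM in control libraries. The groups did not overlap, and RRM1 rose by 0.17 ± 0.04 on the log2 scale (adjusted p = 0.00357). UHRF1 was 161, 184 and 171 CPM in TNF libraries, against 198, 200.2 and 195 CPM in control libraries. Every TNF library was below every control library, with a log2 fold change of -0.20 ± 0.05 (adjusted p = 0.00297).

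RRM2, the partner of RRM1, had 791 ± 32.9 CPM in TNF libraries and 760.4 ± 36.5 CPM in control libraries and was not called (adjusted p = 0.392). POLE2, a subunit of the leading-strand polymerase, had the highest log2 fold change with TNF at 0.22 ± 0.09 (adjusted p = 0.0910), but 0.17 without TNF replicate 1, and 0.12 without control replicate 1 and TNF replicate 1, where MCM10 and RRM1 both had 0.12. The clamp loader gene RFC3 had 0.18 ± 0.06 (adjusted p = 0.0549), but 0.09 without TNF replicate 1, the library in which it had 108 CPM against 88.9 and 89.2 CPM in the other TNF libraries. MCM7 had 737 ± 23.7 CPM in TNF libraries and 733 ± 22.8 CPM in control libraries. The log2 fold changes of the 42 genes not called ranged from -0.11 to 0.22. Of the 44 genes, 6 lay higher and 5 lower in TNF libraries with no overlap, where 12.6% and 11.8% of all tested genes did so. Averaged over both TNF comparisons, a contrast added after the data were seen, RRM1 at 0.09 ± 0.03 (adjusted p = 0.0207) and UHRF1 at -0.10 ± 0.03 (adjusted p = 0.0427) were called, where 14.2% of all tested genes were. The UHRF1 call held in 4 of 19 alternative settings and the RRM1 call in 14.

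The log2 fold changes with TNF followed transcript GC content over the 44 genes, with a Spearman correlation of -0.696, against -0.411 over the 12232 tested genes with a known GC content. Without TNF replicate 1 the correlation over the 44 genes was -0.432, and without control replicate 1 as well it was -0.462. RRM1, with 43.0% GC, had a log2 fold change of 0.12 without those libraries and 0.13 with GC-corrected offsets, and UHRF1, with 54.6% GC, had -0.15 and -0.16, each still called. With GC-corrected offsets, which are fitted to remove such a trend, the correlation over the 44 genes was 0.030. The median absolute log2 fold change of the 44 was then 0.040, against 0.061 in the main fit. The part of GC content in the change of each other gene was not tested further.

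**Figure D5:**
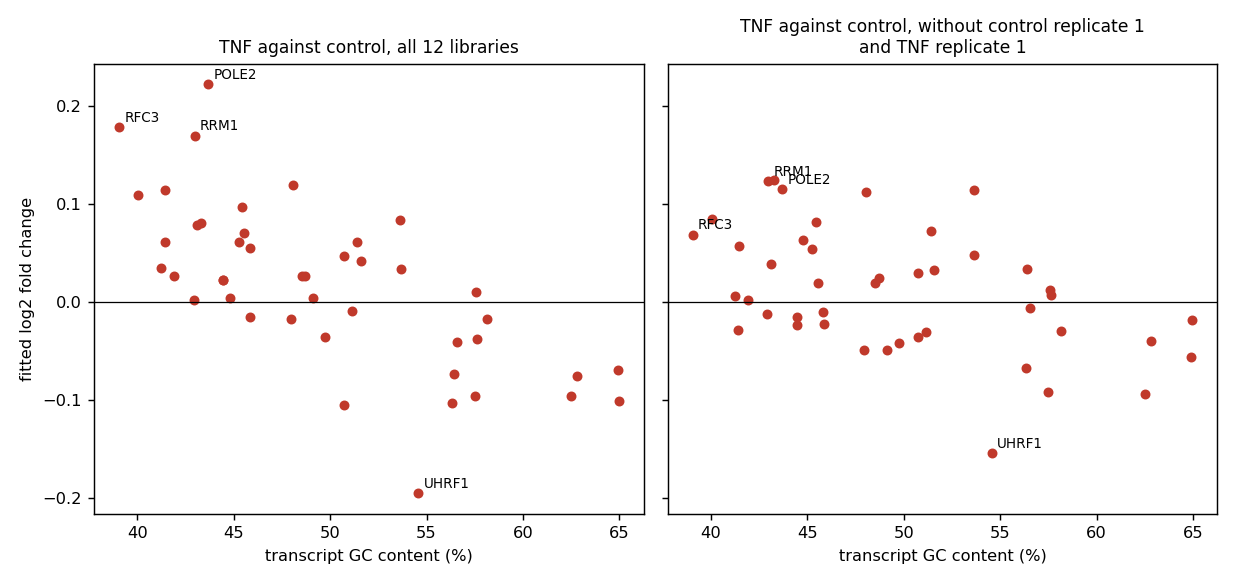
Fitted log2 fold change of the 44 genes in TNF against control, by transcript GC content in percent, with all 12 libraries (left) and without control replicate 1 and TNF replicate 1 (right). The slope from low to high GC is steeper on the left (Spearman -0.696) than on the right (-0.462), and UHRF1 stands lowest in both.

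TNF added to Senexin B called none of the 44 genes, where 5.95% of all tested genes were called. In edgeR, 2 genes, ORC6 and E2F2, had an unadjusted p under 0.05, where 14.9% of all tested genes did. DESeq2 called none and found 1 at that unadjusted level. Of the 44 genes, 5 lay lower and none higher with no overlap, where 21.9% of all tested genes did not overlap. RRM1 had 297 ± 14.99 CPM in TNF plus Senexin B libraries and 293 ± 2.63 CPM in Senexin B libraries (adjusted p = 0.904). UHRF1 had 168 ± 8.85 CPM in TNF plus Senexin B libraries and 168 ± 1.65 CPM in Senexin B libraries. Whether TNF and Senexin B act on a gene independently was tested by the interaction, which called none of the 44 and 0.0459% of all tested genes. In edgeR, 4 of the 44 had an unadjusted interaction p under 0.05, where 6.08% of all tested genes did. They were UHRF1 at 0.20, RRM1 at -0.15, RRM2 at -0.11 and ORC6 at -0.16 on the log2 scale, with adjusted p = 0.741 for UHRF1 and higher for the others. DESeq2 called none and found 2 at the unadjusted level. The calls of RRM1 and UHRF1 with TNF are therefore not shown to differ with Senexin B.

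With TNF plus Senexin B set against control, RRM2, UHRF1, SLBP, E2F2 and ORC6 were lower and none of the 44 was higher. The 5 calls are 11.4% of the 44 genes, where 11.2% of all tested genes were called and 5.08% were called lower. RRM2 was at 605 ± 22.8 CPM in TNF plus Senexin B libraries, against 760.4 ± 36.5 CPM in control libraries (log2 fold change -0.33 ± 0.04, adjusted p = 2.26e-10). UHRF1 was 178, 163 and 163 CPM in TNF plus Senexin B libraries, below the 195 to 200.2 CPM of the control libraries (log2 fold change -0.23 ± 0.05, adjusted p = 0.000167). Its 3 log2 fold changes against control, -0.23 with both agents, -0.20 with TNF and -0.24 with Senexin B, share the control libraries.

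E2F2, an activator E2F factor, was 39.2, 41.2 and 44.9 CPM in TNF plus Senexin B libraries, against 49.9, 53.3 and 45.5 CPM in control libraries (log2 fold change -0.24 ± 0.08, adjusted p = 0.0218). SLBP had a log2 fold change of -0.14 ± 0.04 (adjusted p = 0.0261) and ORC6 of -0.16 ± 0.06 (adjusted p = 0.0429). The groups of these 3 genes did not overlap, although the highest TNF plus Senexin B library of E2F2 lay close to the lowest control library. Of the 44 genes, 8 lay lower and 3 higher with no overlap, where 26.6% of all tested genes did not overlap. The count was 2 without control replicate 2 and 2 without TNF plus Senexin B replicate 1 or 2, and 3 in DESeq2. Of 20 alternative settings, E2F2 was called in 15, SLBP in 15 and ORC6 in 11. The direction was not the same in every setting. GC-corrected offsets called 7 of the 44 genes, and 8 with the replicate block as well, with CDT1 higher and the rest lower each time.

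RRM2 and RRM1 encode the 2 subunits of ribonucleotide reductase, and the ratio of their levels per kilobase shows how differently they moved. RRM2 stood at 1.60 ± 0.0650 times RRM1 in TNF plus Senexin B libraries, 1.92 ± 0.0622 times in TNF libraries, 1.68 ± 0.00254 times in Senexin B libraries and 2.08 ± 0.0341 times in control libraries (SD, n = 3 each). The 6 libraries with Senexin B spanned 1.53 to 1.69 and the 6 without it 1.86 to 2.10. In GENCODE 29, RRM2 overlaps AC007240.1 by 1077 bases of exon on the same strand. That gene had no row of its own in the table, and the RRM2 pseudogenes had at most 2 counts per library. TYMS overlaps ENOSF1 on the opposite strand by 967 bases, and a library kit that does not mark strand cannot tell their reads apart.

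Of 63 other replication, checkpoint and S-phase genes, all tested, 2 were higher with TNF alone, the fork protection gene TIPIN at 0.24 ± 0.07 (adjusted p = 0.0157) and CTPS1, which makes CTP, at 0.14 ± 0.05 (adjusted p = 0.0449) on the log2 scale, and none was lower. With Senexin B alone, the cyclin E2 gene CCNE2, whose product drives entry into S phase, was the 1 gene called, at -0.30 ± 0.09 (adjusted p = 0.0351). In TNF plus Senexin B against TNF, 9 were lower and 1 higher. CCNE2 fell by 0.60 ± 0.09 on the log2 scale (adjusted p = 1.46e-06), the largest drop of the 63. ATAD5, which unloads PCNA from DNA, fell by 0.34 (adjusted p = 0.00525) and TIPIN fell by 0.28 (adjusted p = 0.00838). The E2F repressor gene E2F7 fell by 0.26 (adjusted p = 0.0142), and POLD2, a subunit of the lagging-strand polymerase, rose by 0.17 (adjusted p = 0.0138). In TNF plus Senexin B against control, 5 were lower, among them CCNE2 at -0.37, CCNE1, the other cyclin E gene, at -0.24, E2F7 at -0.22 and the helicase paralogue MCM9 at -0.29, and none was higher. None of the 63 was called when TNF was added to Senexin B, or for the interaction. These counts rested on single libraries. In TNF plus Senexin B against TNF, where 5.45% of all tested genes were called, the 10 calls became 3 without TNF replicate 1, all lower, 4 to 5 without a TNF plus Senexin B library, and 6 without Senexin B replicate 2 or 3. Leaving out each library in turn gave 0 to 4 calls with TNF alone, 0 to 2 with Senexin B alone and 2 to 9 in TNF plus Senexin B against control, where 10.0%, 3.04% and 11.2% of all tested genes were called in the full fit.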

How the data were processed

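Libraries of HCT116 RNA were made with the TruSeq RNA kit (no strand information), per the labels' protocols. The authors deposited raw counts of reads for each gene symbol in each library, without normalization. STAR 2.4, SAMtools 1.2, Subread 1.4.6 with featureCounts and the GRCh38 build are named in the submitters' processing notes. The annotation release, the strand setting and the treatment of reads mapping to several places are not given in the sources used here, and reads shared by near-identical genes could be split either way. Columns were matched to samples by the column number in each sample description.

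Quasi-likelihood F-tests with robust dispersions were run in edgeR 4.0.16 under R 4.3.3, after TMM scaling and filterByExpr, in 1 fit of all 12 libraries with 1 coefficient per group. Adjusted p-values are Benjamini-Hochberg over 13084 genes, with a threshold of 0.05. CPM used TMM factors. Standard errors and 95% intervals are Wald values scaled by the posterior quasi-dispersion. Totals of 5835226 to 9281176 counts gave 201 or more counts per gene and library for all 44 genes, and counting error weighs most on the genes with the fewest counts. The scripts were tested on simulated counts. Transcript GC content and exon lengths came from GENCODE 29.

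The 44 genes and the list of 63 others were chosen with earlier results of these data known. Named by rule were up to 12 called genes per comparison with the smallest adjusted p, the 10 genes MCM2, MCM7, PCNA, E2F1, CDC6, CDT1, RRM2, TYMS, SLBP and BRCA1, and up to 6 called genes of the 63, of which 1 is not reported here; POLE2, RFC3 and the genes at either end of the order of levels were named after their values were seen. Alternatives were DESeq2 1.42.0, other normalization and filtering, fits of 2 groups, GC-corrected offsets, a replicate block and leaving out libraries. The mean effects of Senexin B and of TNF were added after the data were seen.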

Additional observations from a re-analysis of the deposited data

How the results depend on the processing

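Of 3140 values recomputed for 160 results, 2922 counted as kept. A gene's fold change was kept if it stayed on its side of the threshold, and a median if it stayed within the spread between libraries. A count of calls was kept if it stayed within 1.5-fold. In Senexin B against control, 2 to 4 calls in place of 3 therefore counted as kept. Another 74 lost and 25 gained a call, 119 moved further, and none that was called in either fit changed direction. Values not called could change sign and still count as kept. MCM2 in TNF against control did so, from -0.07 to 0.03 when single libraries were left out. RRM2 (with Senexin B alone, with both agents against TNF and against control), UHRF1 (the 3 comparisons against control), RRM1 (TNF against control) and SLBP (both agents against TNF) were called in all 20 alternatives. DESeq2 called 801 genes in TNF against control, 259 in Senexin B against control, 438 in both agents against TNF, 485 in both agents against Senexin B, 943 in both agents against control, 804 for the mean Senexin B effect and 1188 for the mean TNF effect, against 1309, 398, 713, 779, 1462, 1318 and 1864 in edgeR; the cause was not tested. Of the 44 genes, DESeq2 called 3 in both agents against TNF, 3 in both agents against control and 1 for the mean TNF effect. With no filter on low counts these were 2, 3 and 1, and the interaction had 10 genes; more genes were then tested. With only the 2 groups in the fit, 2 were called in both agents against TNF. GC-corrected offsets called 1 in both agents against Senexin B, ORC6, which was lower. For the mean TNF effect they called 1, MCM7, which was higher, while RRM1 and UHRF1 lost their calls. GC-corrected offsets with the replicate block called 717 genes in Senexin B against control, and 1 and 8 of the 44 in both agents against Senexin B and against control. Without control replicate 1 and TNF replicate 1 together, the median of the 44 in TNF against control was 0.0063, and 2 were called in both agents against TNF. For the mean TNF effect 1 was then called, MCM10, which was higher, and RRM1 and UHRF1 were not.

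Leaving out each library in turn called 2 to 4 of the 44 in TNF against control, 2 to 6 in both agents against TNF, 2 to 6 in both agents against control, 4 to 9 for the mean Senexin B effect and 0 to 3 for the mean TNF effect. The median of the 44 ranged from -0.023 to 0.0070 in Senexin B against control, from -0.075 to -0.048 in both agents against TNF and from -0.053 to -0.026 for the interaction. Genes called ranged from 236 to 589, from 451 to 815 and from 2 to 9 in these 3. The labels number the libraries alike in each group and do not say whether same-numbered libraries were handled together. Deviations of same-numbered libraries correlated at -0.012 to 0.103, over 0.1 in 1 of 18 pairs. Those of differently numbered libraries correlated at -0.075 to 0.046. Whether same-numbered libraries share a weak batch was not tested. The replicate block alone called 3 of the 44 in TNF against control, 3 in Senexin B against control, 5 in both agents against TNF, none in both agents against Senexin B and 6 in both agents against control. Depth limits the genes with the fewest counts most, and TNF replicate 1 was the shallowest library with 5835226 counts.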
